A study of Homo sapiens with 4 samples.

Results

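The 10 genes described here encode the receptors, enzymes and transporter of acetylcholine signalling, and they were chosen by name from the 60612 gene IDs of the count table. They are 5 nicotinic receptor subunits (CHRNA3, CHRNA5, CHRNA7, CHRNB2 and CHRNB4), 2 muscarinic receptors (CHRM2 and CHRM3), the synthesizing enzyme CHAT, the vesicular acetylcholine transporter SLC18A3 and the degrading enzyme ACHE. RNAseq counts of these genes were compared in the human neuroblastoma line IMR-32, a long-established line that carries MYCN amplification. Cells titled as carrying a control hairpin (shControl, 2 libraries) were compared with cells carrying a hairpin that silences NeuroD1 (shNeuroD1, 2 libraries). The hairpins were integrated stably, and doxycycline, which switches them on, was applied to both groups at 1 µg/mL for 48 h. The methods describe a scrambled control hairpin, and a figure legend of the study names the RNAseq control shNC. The study's text, however, calls the RNAseq control cells parental, and their genotype label is WT. Whether the shControl libraries carried an induced hairpin is therefore not settled. If they did not, carrying a hairpin and silencing NeuroD1 cannot be told apart. The labels state neither whether replicate libraries came from separate cultures nor which of the 2 NeuroD1 hairpins was used. The sample titles end like the hairpin names, shNeuroD1-1 and shNeuroD1-2, whereas a table supplied with the study heads both knockdown columns with 1 hairpin name. The numbers were treated here as replicates, and whether both libraries carry the same hairpin is not settled. The p-values measure only the spread between these samples, which may be technical.

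Acetylcholine is made from choline and acetyl-CoA by choline acetyltransferase, is loaded into synaptic vesicles by the transporter SLC18A3, and is cleaved in the synaptic cleft by acetylcholinesterase. Nicotinic receptors are pentameric cation channels that open when acetylcholine binds, and the alpha3 and beta4 subunits form the main receptor of autonomic ganglia. Muscarinic receptors are G protein-coupled receptors, of which CHRM2 acts through inhibitory Gi/o proteins and CHRM3 through Gq. Sympathetic neurons, the lineage from which neuroblastoma arises, receive cholinergic input, and a minority of them are cholinergic themselves. NeuroD1 is a basic helix-loop-helix transcription factor that binds E-boxes, sites of the form CANNTG.

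The sequences below show 2 features of these genes. The first is the shared sequence of CHRNA7 (chromosome 15, 31923438 to 32173018, plus strand, on GRCh38 like all coordinates here) and CHRFAM7A (chromosome 15, 30357766 to 30393849, minus strand), a fusion gene that carries a copy of part of CHRNA7. The capitals mark the bases that belong to each transcript alone, and the lower-case bases, which begin exon 5 of CHRNA7-201, are identical in both. They come from the GENCODE 29 transcripts and lie at chr15:32111870-32153966 (plus strand, across an intron) and chr15:30377050-30380382 (minus strand, across an intron).

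CHRNA7-201: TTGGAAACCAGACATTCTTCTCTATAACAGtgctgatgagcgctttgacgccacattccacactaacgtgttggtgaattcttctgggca
CHRFAM7A-201: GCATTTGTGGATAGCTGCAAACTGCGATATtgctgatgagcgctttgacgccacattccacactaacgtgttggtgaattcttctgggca

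Of the 50-base windows of CHRNA7-201, 84.7% were also present in a CHRFAM7A transcript. The share was 0% in exons 1, 2 and 4, and 100% in exons 5, 6 and 8. How the authors' counting divided such reads was not stated, so the CHRNA7 and CHRFAM7A counts are uncertain.

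The second feature is the cholinergic gene locus on chromosome 10, where SLC18A3 (49610301 to 49612720, plus strand) lies within an intron of CHAT (49609095 to 49665104, plus strand) and shares no exon base with it. The windows directly before the first RefSeq start of each gene are shown because both genes fell, and that of CHRM2 (chromosome 7, 136868669 to 137020255, plus strand) because it holds the same motif before a gene that rose. Sequences are from RefSeq on GRCh38.p14, plus strand, at chr10:49608845-49609094, chr10:49610060-49610300 and chr7:136868402-136868651, and capitals mark each E-box.

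CHAT: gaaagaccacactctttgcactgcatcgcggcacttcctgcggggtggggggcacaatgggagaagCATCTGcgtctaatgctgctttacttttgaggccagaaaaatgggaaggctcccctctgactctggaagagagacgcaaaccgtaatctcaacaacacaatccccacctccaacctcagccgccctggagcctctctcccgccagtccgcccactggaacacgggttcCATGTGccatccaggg
SLC18A3: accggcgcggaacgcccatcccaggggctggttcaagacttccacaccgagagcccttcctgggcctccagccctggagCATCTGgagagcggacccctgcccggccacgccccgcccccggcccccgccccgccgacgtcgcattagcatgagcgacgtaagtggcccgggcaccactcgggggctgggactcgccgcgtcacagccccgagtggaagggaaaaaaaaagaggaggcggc
CHRM2: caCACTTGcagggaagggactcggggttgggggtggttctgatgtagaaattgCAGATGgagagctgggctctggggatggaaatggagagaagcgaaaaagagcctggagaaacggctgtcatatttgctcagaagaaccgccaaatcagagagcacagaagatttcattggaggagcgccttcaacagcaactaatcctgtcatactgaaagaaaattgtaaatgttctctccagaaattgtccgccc

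Windows of 250 bases before the RefSeq start were searched on both strands for CANNTG and for CAGATG and CAGCTG, which are forms of it. A window was present for 9 of the 10 genes, all except CHRNA5, and some genes had several starts. CANNTG was present in 61.8% of 35116 windows of all genes, CAGATG in 12.2% and CAGCTG in 14.0%. CAGATG, or CATCTG read on the printed strand, occurred at -184 in the first CHAT window, at -171 in the SLC18A3 window and at -197 in the first CHRM2 window. CAGCTG occurred at -233 in the CHRNB4 window. The CHRNB2 window held no CANNTG. None was present in the CHAT windows before starts 49613098 and 49614037 either. The same was true of the ACHE windows before starts 100895888 and 100894606 and the CHRM2 window before start 136869085. These matches describe letters and were not measured as binding.

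Total counts per library ranged from 14665210 to 16482463. NEUROD1, the targeted gene, was at 416.7 ± 3.10 CPM (counts scaled to library size with TMM factors, SD, n = 2) in shControl and 60.9 ± 3.90 in shNeuroD1, or 14.6% of the control level. Of 8 sympathetic neuroblast markers, 3 were lower, 3 were higher and 2 did not pass the test, with MYCN at 1985 and 1974 CPM in the 2 groups. At the same threshold (edgeR adjusted p under 0.05), 28.2% of all tested genes were lower and 26.8% were higher. DBH and TH, enzymes of noradrenaline synthesis, were low and moved in opposite directions. DBH had 23 and 24 counts in shControl against 12 and 11 in shNeuroD1 (log2 fold change -1.01, SE 0.406, edgeR adjusted p 0.034), and TH had 10 and 20 against 88 and 79 (log2 fold change 2.48, SE 0.288, edgeR adjusted p 8.3e-09). The 4 Schwann cell markers summed to 5.02 and 5.04 CPM in shControl and 5.06 and 5.65 in shNeuroD1, with SOX10 at 8 to 17 counts. The 6 mesenchymal markers summed to 113 and 123 CPM and to 103 and 102 CPM, with PRRX1 at 0 in every library and COL1A2 at 0 in 3 of 4. All 4 of them that were tested passed, beside 28.2% lower and 26.8% higher of all tested genes. COL1A1 (log2 fold change -0.94) and FN1 (-0.30) were lower, and COL3A1 (3.89, from 0 and 2 counts to 15 and 18) and THY1 (0.26) were higher. The mitochondrial share of counts was 4.37% and 4.59% against 5.39% and 5.51%, and the part of these shifts in the results was not tested.

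Of the 10 genes, 9 passed the filter on low counts, and CHRM3, at 3 to 7 counts per library, did not. At an adjusted p under 0.05, 4 of the 9 fell with the NeuroD1 hairpin and 5 rose (edgeR quasi-likelihood F test, two-sided, Benjamini-Hochberg over 17537 genes). In the background, 28.2% of all tested genes were lower and 26.8% were higher at that threshold. With a log2 fold change beyond 1 in addition, CHAT was lower and ACHE was higher, against a background of 5.14% lower, 8.79% higher and 13.9% in either direction. The groups did not overlap for any of the 9, as was the case for 76.1% of all tested genes. The median log2 fold change was 0.25 over the 9 genes and 0.01 over all genes tested. In these bulk samples, fewer cells expressing a gene and less RNA per cell cannot be told apart.

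**Figure D1:**
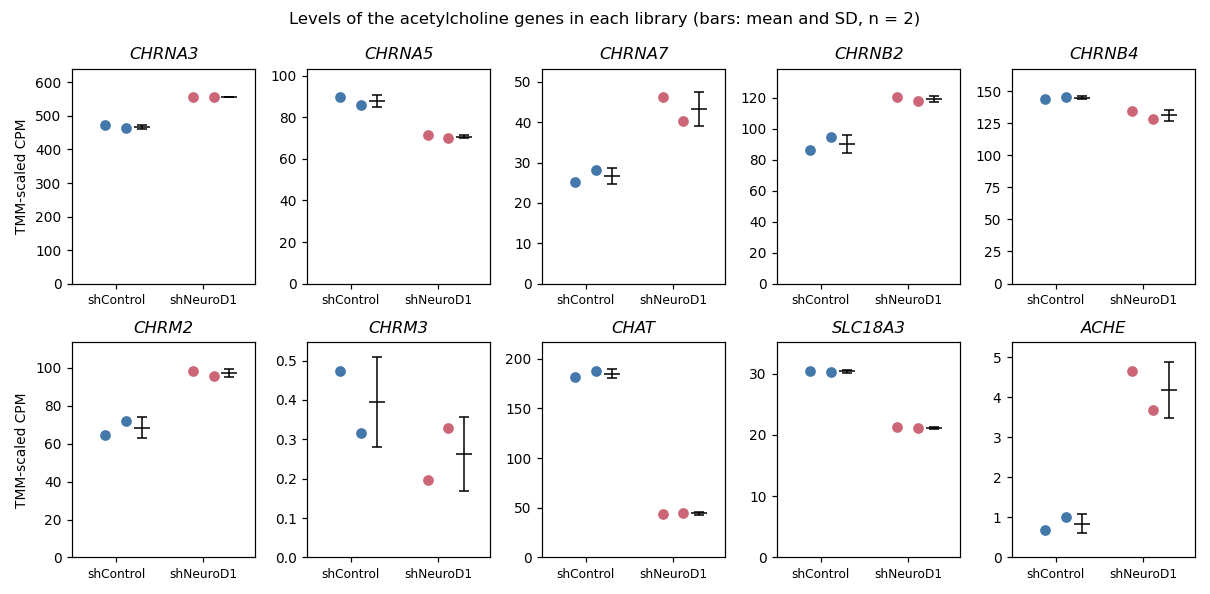
Each panel plots 1 gene, with TMM-scaled CPM on the vertical axis from 0, 1 point per library and the mean and SD (n = 2) in black beside the points. CHAT falls from 182 and 188 CPM to 43.5 and 45.1, ACHE rises from 0.679 and 1.01 to 4.67 and 3.68, and only the CHRM3 groups overlap.

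Of the 4 genes that fell, CHAT, the enzyme that makes acetylcholine, fell most. CHAT (ENSG00000070748) had 2682 and 2987 counts in shControl 1 and 2 and 661 and 686 in shNeuroD1 1 and 2, or 182 and 188 CPM against 43.5 and 45.1 CPM. Both shNeuroD1 libraries lay far below both shControl libraries, at 23.9% of the control mean. This was a log2 fold change of -2.06 with an SE of 0.0546 and an edgeR adjusted p of 1.2e-24.

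SLC18A3 (ENSG00000187714), the vesicular transporter encoded within the CHAT locus, fell less. It had 450 and 480 counts in shControl against 323 and 321 in shNeuroD1, or 30.5 and 30.2 CPM against 21.2 and 21.1 CPM. The replicates differed little and the groups did not overlap, with shNeuroD1 at 69.6% of the control mean. On the log2 scale the change was -0.52 with an SE of 0.0875 (edgeR adjusted p 6.4e-06). The ratio of CHAT to SLC18A3 counts was 5.96 and 6.22 in shControl against 2.05 and 2.14 in shNeuroD1, a difference that was not tested.

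ACHE (ENSG00000087085, chromosome 7, 100889994 to 100896974, minus strand), the enzyme that ends the signal, moved the other way from a very low level. It had 10 and 16 counts in shControl against 71 and 56 in shNeuroD1, or 0.679 and 1.01 CPM against 4.67 and 3.68 CPM. Both shNeuroD1 libraries were above both controls, and the shNeuroD1 mean was 4.95 times the control mean. edgeR gave a log2 fold change of 2.29 with an SE of 0.315 and an adjusted p of 2.3e-07. In the per-library FPKM tables, transcript starts of ACHE were listed only in the shNeuroD1 libraries, at 0.157 and 0.264 FPKM for the start listed in both. Starts at 0.718 and 0.185 FPKM were listed in shNeuroD1 1 but not in shNeuroD1 2.

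Transcript structure was read from those tables, which hold the FPKM (fragments scaled by depth and by transcript length) of starts, ends and splicing events in assembled transcripts. In these assembled transcripts CHAT began inside the gene, and no other readout of its starts was used here. A start 28.3 kb downstream of the first annotated start, matching GENCODE transcript CHAT-212, had 37.0 and 26.8 FPKM in shControl and 7.48 and 7.07 in shNeuroD1, and both shNeuroD1 values were below both control values. It carried 99.99% to 100% of the CHAT start FPKM in 3 libraries and 93.7% in shNeuroD1 2, where a start at 11.6 kb was listed at 0.474 FPKM. The start before which the printed CHAT window lies was not listed in any library. CHAT-212 codes for 1107 bases, whereas the other complete coding transcripts of CHAT code for 1890 to 2244 bases, all of which end in frame with the same coding sequence. Its coding part begins at chr10:49646531-49646620 (plus strand) with the bases below, in which the start codon is in capitals.

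CHAT-212: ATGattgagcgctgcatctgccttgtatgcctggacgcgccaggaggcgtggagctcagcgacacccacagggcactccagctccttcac

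**Figure D2:**
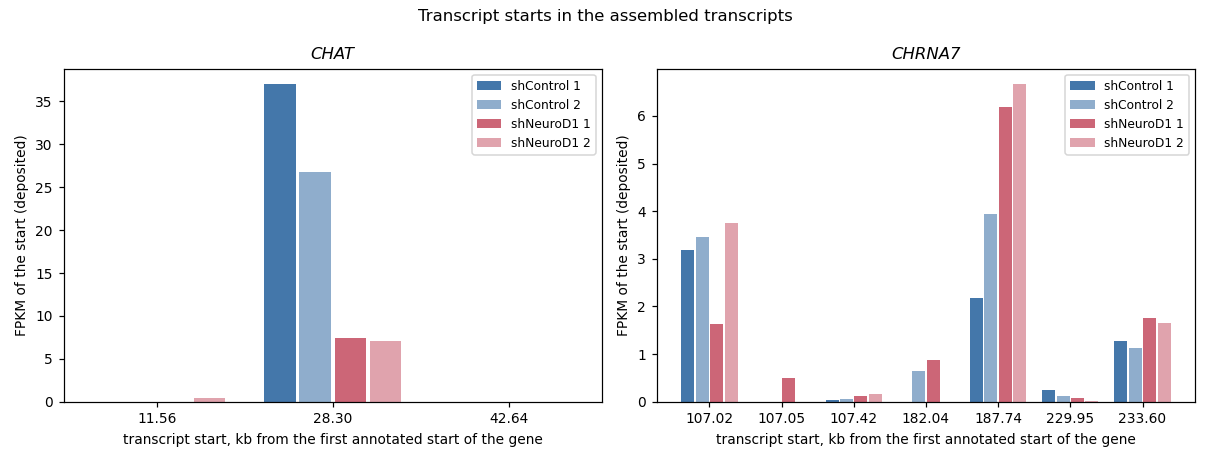
Bars show the deposited FPKM of each transcript start of CHAT (left) and CHRNA7 (right) in the 4 libraries, ordered by distance in kb from the first annotated start, with starts not listed drawn at 0. CHAT is carried by the start at 28.3 kb, with 37.0 and 26.8 FPKM in shControl against 7.48 and 7.07 in shNeuroD1, and the inner CHRNA7 start at 187.7 kb is higher in both shNeuroD1 libraries.

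Among the nicotinic subunits, CHRNA3, CHRNA7 and CHRNB2 rose and CHRNA5 and CHRNB4 fell, all by less than 2-fold. CHRNA3, CHRNA5 and CHRNB4 sit side by side on chromosome 15 (CHRNA5 at 78565520 to 78595269 on the plus strand, CHRNA3 at 78593052 to 78621295 and CHRNB4 at 78624119 to 78727754 on the minus strand). The 3 neighbours did not move in 1 direction.

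CHRNA3 (ENSG00000080644), the alpha3 subunit of ganglionic receptors, had 6959 and 7365 counts in shControl against 8473 and 8493 in shNeuroD1, or 472 and 464 CPM against 557 and 558 CPM. Both shNeuroD1 libraries were higher, at 119% of the control mean. This was a log2 fold change of 0.25 with an SE of 0.0396 and an edgeR adjusted p of 2.2e-06.

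CHRNB4 (ENSG00000117971), the beta4 subunit that pairs with alpha3, had 2121 and 2314 counts in shControl against 2042 and 1949 in shNeuroD1, or 144 and 146 CPM against 134 and 128 CPM. The groups did not overlap, but the gap was small, at 90.5% of the control mean. On the log2 scale the change was -0.14 with an SE of 0.0481 (edgeR adjusted p 0.012). This call was lost when libraries were scaled by size alone (log2 fold change -0.031, adjusted p 0.60), in DESeq2 (-0.16, adjusted p 0.068), and without shControl 1 (-0.16, adjusted p 0.068), shControl 2 (-0.14, adjusted p 0.088) or shNeuroD1 2 (-0.11, adjusted p 0.23).

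CHRNA5 (ENSG00000169684), an accessory subunit that joins alpha3 receptors, had 1327 and 1365 counts in shControl against 1085 and 1068 in shNeuroD1, or 90.03 and 86.0 CPM against 71.3 and 70.1 CPM. The shNeuroD1 libraries were both lower, at 80.4% of the control mean. edgeR gave a log2 fold change of -0.31 with an SE of 0.0559 and an adjusted p of 1.6e-05, and it was -0.20 when libraries were scaled by size alone. CHRNA5 and CHRNA3 overlap tail to tail by 198 exon bases on opposite strands, and CHRNA5 shares 832 exon bases with the antisense gene AC027228.2, which had 526, 469, 455 and 483 counts. The transcript end of CHRNA5 had 20.2 and 21.1 FPKM in shControl against 15.2 and 14.8 in shNeuroD1, again without overlap. Use of strand in the counting was not stated, so reads of these overlaps cannot be assigned.

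Within a library, the ratio of CHRNA5 to CHRNA3 counts went from 0.191 and 0.185 in shControl to 0.128 and 0.126 in shNeuroD1, and that of CHRNB4 to CHRNA3 counts from 0.305 and 0.314 to 0.241 and 0.229. In the FPKM tables, CHRNA3 and CHRNB4 were merged into 1 locus. There the CHRNB4 start had 31.2 and 19.3 FPKM in shControl and 13.8 and 16.7 in shNeuroD1, and the CHRNA3 starts had 30.1 and 86.0 against 117 and 117. The CHRNA3 value of shControl 1 stood apart from shControl 2 in that assembly, whereas the counts of the same 2 libraries were alike.

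CHRNB2 (ENSG00000160716, chromosome 1, 154567781 to 154580026, plus strand), the beta2 subunit of the main brain receptors, had 1270 and 1499 counts in shControl against 1837 and 1796 in shNeuroD1, or 86.2 and 94.4 CPM against 121 and 118 CPM. Both shNeuroD1 libraries were higher, at 132% of the control mean. This was a log2 fold change of 0.40 with an SE of 0.0536 and an edgeR adjusted p of 1.3e-07. Its single start had 9.45 and 11.8 FPKM in shControl and 15.3 and 14.0 in shNeuroD1.

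CHRNA7 (ENSG00000175344), which forms receptors of identical alpha7 subunits, had 372 and 447 counts in shControl against 705 and 613 in shNeuroD1, or 25.2 and 28.2 CPM against 46.3 and 40.3 CPM. The groups did not overlap, and shNeuroD1 was at 162% of the control mean. On the log2 scale the change was 0.70 with an SE of 0.0834 (edgeR adjusted p 1.6e-08). CHRFAM7A, whose protein is known to dampen alpha7 receptors, had 106 and 96 counts in shControl against 158 and 141 in shNeuroD1, with a log2 fold change of 0.57 and an SE of 0.156 (edgeR adjusted p 0.0024). The CHRFAM7A call was lost without shControl 2 (0.44, adjusted p 0.10), in DESeq2 (0.56, adjusted p 0.094) and in both FPKM fits (0.31 and 0.52, adjusted p 0.67 and 0.71).

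Transcript starts of CHRNA7 differed by position. Starts in its first 2 exons, which share no 50-base window with CHRFAM7A, summed to 3.21 and 3.53 FPKM in shControl and 2.25 and 3.91 in shNeuroD1, and the groups overlapped. Starts further inside the gene summed to 3.70 and 5.81 FPKM in shControl and 8.91 and 8.33 in shNeuroD1, and they did not overlap. The most abundant inner start, at 187.7 kb and matching CHRNA7-213, had 2.18, 3.94, 6.19 and 6.66 FPKM in shControl 1 and 2 and shNeuroD1 1 and 2, and its first exon ends where exon 4 ends, an exon that shares no window with CHRFAM7A. The transcript end of CHRNA7 had 3.60 and 5.21 FPKM in shControl against 8.49 and 8.43 in shNeuroD1. These FPKM sums were not tested.

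Of the muscarinic receptors, CHRM2 (ENSG00000181072), which lowers cyclic AMP through Gi/o, had 951 and 1147 counts in shControl against 1500 and 1459 in shNeuroD1, or 64.5 and 72.2 CPM against 98.6 and 95.8 CPM. Both shNeuroD1 libraries were higher, at 142% of the control mean. edgeR gave a log2 fold change of 0.51 with an SE of 0.0583 and an adjusted p of 7.2e-09. Its main start had 12.5 and 10.6 FPKM in shControl against 13.1 and 20 in shNeuroD1, and its transcript end 9.54 and 7.72 FPKM against 9.96 and 15.2. Both readouts were highest in shNeuroD1 2 and little apart in the other libraries. CHRM3 (ENSG00000133019, chromosome 1, 239386565 to 239915452, plus strand) had 7 and 5 counts in shControl against 3 and 5 in shNeuroD1, so no change was detectable at this depth.

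On the FPKM scale 5 of the 10 genes could be tested, since CHRNA3, CHRNB4, CHRM3 and SLC18A3 had no row of their own and ACHE was under the minimum of 1 FPKM. CHAT remained past the threshold in limma, with an adjusted p of at most 0.030. CHRNA5, CHRNA7, CHRNB2 and CHRM2 kept their direction and lost the call, with adjusted p of 0.095 to 0.29.

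**Figure D3:**
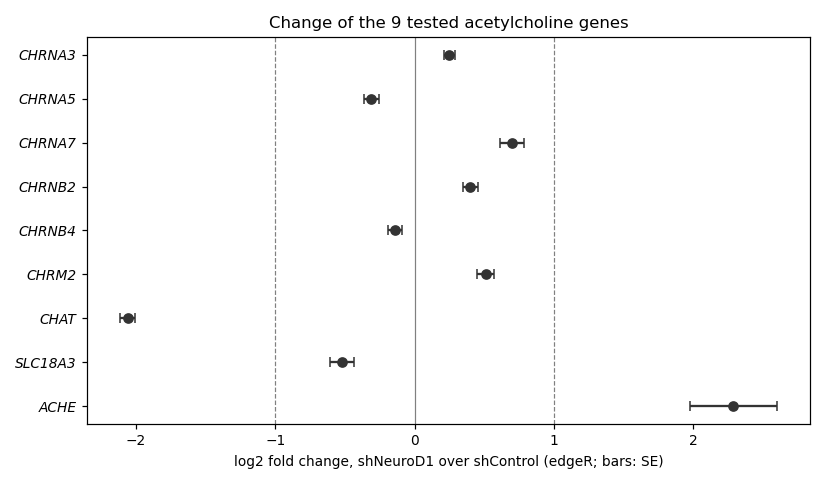
Points are log2 fold changes of shNeuroD1 over shControl with their SE (edgeR, n = 2 per group) for the 9 tested genes, with dashed lines at -1 and 1. CHAT at -2.06 and ACHE at 2.29 lie beyond the dashed lines, and the other 7 lie between -0.52 and 0.70.

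Levels of different genes were compared per kilobase of exon. In shControl, CHRNA3 was highest, at 98.2 CPM per kb, followed by CHAT at 49.3, CHRNB4 at 29.1, CHRNA5 at 24.3, CHRNB2 at 15.3, SLC18A3 at 12.6, CHRM2 at 8.22, CHRNA7 at 1.27, ACHE at 0.223 and CHRM3 at 0.0324. No pair of neighbours in that order overlapped between libraries. In shNeuroD1, CHRNA3 stayed highest at 117 CPM per kb, CHAT moved from place 2 to place 5 at 11.8, and CHRNB2 moved from place 5 to place 3 at 20.3. CHAT and CHRM2, at 11.7 CPM per kb, were then neighbours whose libraries overlapped. All 10 genes held the same places when the longest coding transcript was used as the length, a choice made after the data were seen. The level of CHRNA7 depends most on that choice, at 1.27 CPM per kb of all exons and 4.32 CPM per kb of the longest coding transcript in shControl.

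**Figure D4:**
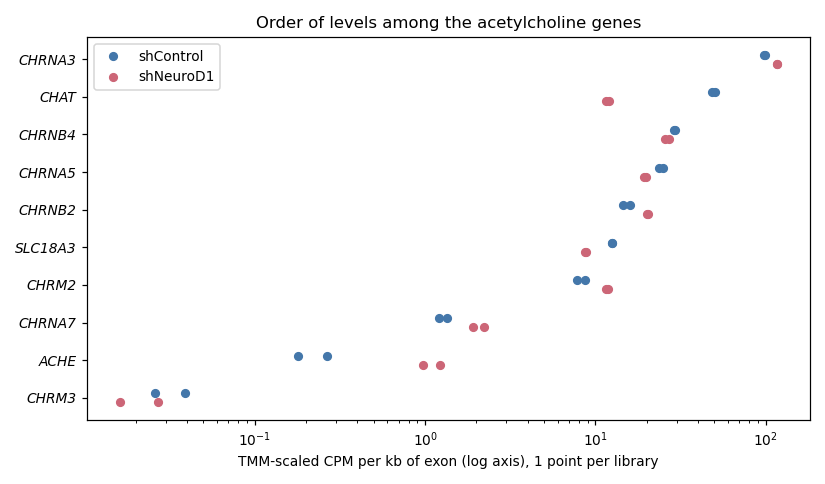
Each row is a gene, and the horizontal log axis gives TMM-scaled CPM per kb of exon, with 1 point per library. CHAT moves from 49.3 to 11.8 CPM per kb between the group means, past CHRNB4, CHRNA5 and CHRNB2, while CHRNA3 stays highest.

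Other genes of the pathway were taken from 5 lists with 46 genes in all, of which 36 were tested. There, 11 were lower, 15 were higher and 10 did not pass the test, and the median log2 fold change was 0.02. These counts compare with the 28.2% lower and 26.8% higher of all genes tested. With a log2 fold change beyond 1 in addition, 3 of the 36 were lower and 6 were higher. Among all genes tested, 5.14% were lower and 8.79% higher by both thresholds.

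Of 11 other nicotinic subunits 6 were tested, with 1 lower, 2 higher and 3 not past the threshold. Among all genes tested, 28.2% were lower and 26.8% higher, and 13.9% passed both thresholds in either direction. CHRNA1, the alpha subunit of muscle receptors, had 66 and 75 counts in shControl and 0 in both shNeuroD1 libraries, which makes it at least 23.3-fold lower with a floor of 3 counts per library (edgeR adjusted p 4.2e-12). CHRNA4, the partner of beta2 in brain receptors, had 33 and 53 counts in shControl against 161 and 160 in shNeuroD1, with a log2 fold change of 1.91 and an SE of 0.191 (edgeR adjusted p 3.7e-10). CHRNA9, a subunit known from cochlear hair cells, had 32 and 41 counts against 146 and 197, with a log2 fold change of 2.24 and an SE of 0.201 (edgeR adjusted p 3.1e-11). None of the 3 overlapped between groups. In this list 5 of the 6 tested genes did not overlap, beside 76.1% of all tested genes. In the FPKM fits CHRNA9 was at 1.78 and 3.77 without the call (adjusted p 0.054 and 0.11).

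Of 3 other muscarinic receptors, CHRM1 rose and CHRM4 fell, and CHRM5 was under the filter. CHRM1, a Gq-coupled receptor, had 164 and 171 counts in shControl against 363 and 319 in shNeuroD1, with a log2 fold change of 1.03 and an SE of 0.114 (edgeR adjusted p 3.1e-09), and it was at 0.93 without shNeuroD1 1 and 1.00 without shControl 2, at or under the fold threshold. CHRM4, which couples to Gi/o and was named after its values were seen, had 95 and 95 counts against 44 and 60 (log2 fold change -0.86, SE 0.205, edgeR adjusted p 0.00063). Alternative fits of CHRM4 are not given here.

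Of 10 genes for chaperones, anchors and Ly6 prototoxins of nicotinic receptors 8 were tested, with 3 lower and 5 higher. Beside them, 28.2% of all genes tested were lower and 26.8% higher. Both thresholds were passed by 1 lower and 3 higher genes, against 5.14% and 8.79% of all genes tested. LY6H, a Ly6 protein that limits alpha7 receptors at the surface, rose from 45 and 38 counts to 215 and 206 (log2 fold change 2.35, SE 0.174, edgeR adjusted p 3.8e-13). LYPD6, another Ly6 protein, fell from 162 and 180 counts to 90 and 67 (log2 fold change -1.11, SE 0.163, edgeR adjusted p 6.7e-07), and was at -0.92 without shNeuroD1 2, under the fold threshold, and at -0.47 and -0.80 without the call in the FPKM fits (adjusted p 0.22 and 0.24). LYNX1, a prototoxin that binds nicotinic receptors, had 8 and 10 counts against 15 and 39 (log2 fold change 1.58, SE 0.463, edgeR adjusted p 0.0044). Its call was lost without shNeuroD1 2 (0.74, adjusted p 0.42), shControl 1 (1.47, adjusted p 0.24) or shControl 2 (1.68, adjusted p 0.21), without a filter (1.57, adjusted p 0.070) and in DESeq2 (1.58, adjusted p 0.095). MUSK, the muscle receptor kinase that clusters nicotinic receptors, had 5 and 1 counts against 10 and 11 (log2 fold change 1.77, SE 0.676, edgeR adjusted p 0.027). Its call was lost without shControl 2 (1.00, adjusted p 0.21), shNeuroD1 1 (1.83, adjusted p 0.11) or shNeuroD1 2 (1.70, adjusted p 0.17), without a filter (1.75, adjusted p 0.13) and in DESeq2 (1.78, adjusted p 0.28), and without shControl 1 it was at 3.29 (adjusted p 0.048).

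Of 12 genes for choline and acetyl-CoA supply, butyrylcholinesterase and esterase anchors 10 were tested, with 4 lower and 2 higher. Beside them, 28.2% of all genes tested were lower and 26.8% higher. SLC44A1, a choline transporter, fell from 679 and 791 counts to 285 and 275 (log2 fold change -1.38, SE 0.083, edgeR adjusted p 1.9e-15), and was at -1.34 and -2.77 without the call in the FPKM fits (adjusted p 0.14 and 0.23). ACLY, which makes cytosolic acetyl-CoA, fell from 715 and 762 CPM to 459 and 452 CPM (log2 fold change -0.70, SE 0.0411, edgeR adjusted p 1.1e-15), and BCHE, the other cholinesterase, from 22.3 and 20.6 CPM to 17.6 and 18.5 CPM (log2 fold change -0.25, SE 0.101, edgeR adjusted p 0.034), both named after their values were seen. The remaining lower gene was CHKA (log2 fold change -0.28, SE 0.0836, edgeR adjusted p 0.0053). The 2 higher genes were COLQ (log2 fold change 0.64, SE 0.229, edgeR adjusted p 0.017) and CHKB (0.60, SE 0.212, edgeR adjusted p 0.017). CHKA, COLQ and CHKB were also named after their values were seen. Alternative fits of ACLY, BCHE, CHKA, COLQ and CHKB are not given here. SLC5A7, the high-affinity choline transporter that cholinergic terminals use, had 0 counts in all 4 libraries.

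All 10 genes for muscarinic G proteins and phospholipase C beta were tested, with 2 lower, 5 higher and 3 not past the threshold. Beside them, 28.2% of all genes tested were lower and 26.8% higher. PLCB1, a phospholipase that Gq activates, had the smallest adjusted p, with 766 and 825 counts in shControl against 1267 and 1211 in shNeuroD1 (log2 fold change 0.65, SE 0.0595, edgeR adjusted p 5.4e-11), and was at 0.19 and 0.22 without the call in the FPKM fits (adjusted p 0.70 and 0.71).

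**Figure D5:**
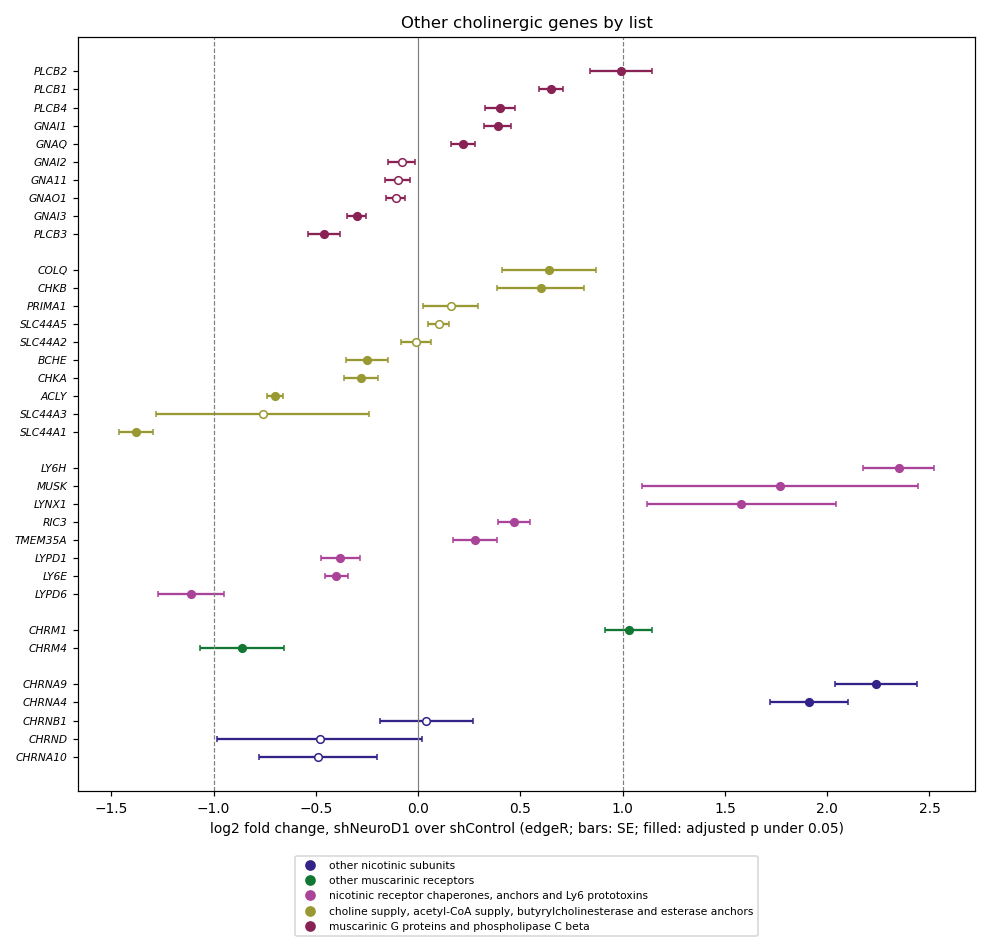
Points are log2 fold changes of shNeuroD1 over shControl with their SE (edgeR, n = 2 per group) for the tested genes of the 5 pathway lists, coloured by list and filled where the adjusted p is under 0.05. CHRNA1, at 0 counts in both shNeuroD1 libraries, is left out, and LY6H at 2.35 and SLC44A1 at -1.38 lie at the ends of what is drawn.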

How the data were processed

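RNA of 4 IMR-32 libraries was sequenced after poly(A) selection or rRNA removal, which the labels leave undecided. The authors deposited raw read counts per Ensembl gene, and the submitters' processing notes name cutadapt 1.9.1, HISAT2 2.0.1, HTSeq 0.6.1, DESeq2 and hg38. Use of strand and the gene annotation were not given in the sources used here. The authors also deposited FPKM values of transcript events per library, listed only where above 0, with the tool not given in the sources used here.

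Counts were fitted in R 4.3.3 with edgeR 4.0.16 using filterByExpr (minimum count 10), TMM and the quasi-likelihood F test, two-sided and adjusted by Benjamini-Hochberg over 17537 genes. The SE is the size of the log2 fold change divided by the square root of F. DESeq2 1.42.0 and limma 3.58.1 were alternatives, with each gene's FPKM summed over its starts and a pseudocount of 1 or 0.1. Coordinates and lengths are from GENCODE 29. The genes named are NEUROD1, the 10 genes, CHRFAM7A and overlapping genes, and in each pathway list those past both thresholds, or else the one with the smallest adjusted p. Other genes were chosen after their values were seen, and their values in the alternative fits are not given here. The 10 genes and the lists were chosen with earlier results of these data known, and 2 marker genes of those lists are not reported here and are not in the marker counts or sums.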

Additional observations from a re-analysis of the deposited data

How the results depend on the processing

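All 9 tested genes of the 10 kept their direction in every alternative in which they had a value. Scaling by library size alone shifted the median of all genes to 0.12 on the log2 scale. Under it, CHRNB4 was at -0.031. DESeq2 gave CHRNB4 at -0.16 and called 9 of 43 pathway genes higher, against 15 of 36 in edgeR. On the FPKM scale, with a pseudocount of 1 or 0.1, 5 of the 10 genes had values, of which 1 was lower, 0 were higher by adjusted p and 1 was past both thresholds, and of 24 pathway genes 0 were lower and 1 was higher (limma). At an unadjusted p under 0.05, 2 of the 5 were lower and 2 higher in both fits, and 3 and 2 pathway genes were lower and 4 higher in each. There CHRNA5 was at -0.44 and -0.46, CHRNA7 at 0.54 and 0.59, CHRNB2 at 0.43 and 0.46 and CHRM2 at 0.48 and 0.51. With a pseudocount of 1, the SE was 0.105 for CHRNA5, 0.173 for CHRNA7, 0.153 for CHRNB2 and 0.241 for CHRM2. In edgeR these SEs were 0.0559, 0.0834, 0.0536 and 0.0583. The FPKM fits used 10082 genes, and the cause of the lost calls was not tested. The share of all genes called is given here only for the main edgeR fit. Counts under the other settings therefore have no such background beside them.

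Leaving out each library in turn, where the lone library of a group is assumed to vary like the other group, gave CHRNB4 between -0.18 and -0.11, and 7 to 10 pathway genes lower against 11 with all libraries, with 7 without shControl 1. With the replicate number as a block (replicate block), 4 of the 10 genes were lower and 5 higher, and 12 pathway genes were lower and 15 higher, and deviations of same-numbered libraries had a correlation of 0.0186, so the numbers were not taken as pairs. glmTreat against a log2 fold change of 1 also called 2 of the 10 genes. With 2 libraries per group, an exact permutation test cannot give a p below 0.333.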
